A study of Homo sapiens with 12 samples.

Results

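The 53 genes described here encode the machinery of DNA replication and S phase in Jurkat cells, from the factors that license origins to the polymerases, the sliding clamp, the enzymes that supply nucleotides and the cyclins that open S phase. They were chosen by symbol, and all 53 were found in both deposited tables, among 55514 genes in the table of ZNF683 and Mock libraries and 44389 genes in the table of Dox+ and Dox- libraries. Values are TPM, a level corrected for transcript length and scaled so that each library sums to about the same total. Genes averaging 1 TPM or more over a table's 6 libraries were tested, and all 53 met that in both tables.

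RNA was sequenced from 12 libraries of Jurkat, a line from a human T cell acute lymphoblastic leukaemia, in 4 groups of 3. ZNF683 libraries came from cells whose genotype label gives doxycycline-induced ZNF683, and Mock libraries from cells labelled Mock. Dox+ libraries came from a line titled Hobit grown with doxycycline, and Dox- libraries from that line without it. The treatment entry, which is identical for all 12 samples, gives 1 ug/uL as the dose wherever doxycycline was used. The labels do not give the promoter, the number of clones, whether Mock cells received doxycycline, or whether replicates were separate cultures, so the spread behind each p-value is that of these libraries and may be technical. ZNF683 encodes Hobit, a zinc finger repressor of tissue-resident lymphocytes, and its own level was low in every library. It had 1.17, 1.76 and 1.04 TPM in ZNF683 libraries 1 to 3, against 0.715, 1.59 and 0.681 TPM in Mock libraries (two-sided exact permutation test, p = 0.5). It had 0.453, 0.774 and 0.571 TPM in Dox+ libraries, against 0.115, 0.239 and 0.451 TPM in Dox- libraries (exact permutation p = 0.1, the smallest that 3 against 3 can give). The ZNF683 and Mock values overlapped, so the gene's own level does not separate these libraries as labelled.

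Replication begins in G1, when the origin recognition complex, CDC6 and CDT1 load the MCM2-7 helicase on DNA, and geminin later blocks reloading. CDC45 and GINS then activate the helicase, primase and DNA polymerase alpha start each strand, and the clamp PCNA, loaded by replication factor C, holds polymerases delta and epsilon on the template. Many of these genes are transcribed under E2F factors, which are released when cyclins, cyclin E among them, and their kinases act on the retinoblastoma protein. Jurkat cells divide continuously in culture, so transcripts of this machinery are present in an unsynchronised population. In bulk RNA, fewer cells in S phase and less RNA per cell cannot be told apart.

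The promoters of 5 of the 53 genes are shown because they belong to the gene lowest in ZNF683 libraries relative to Mock (HELLS), to 3 genes higher there (CCNE1, CHAF1A and GINS2), and to E2F1 itself. Each line gives the 250 bases before the RefSeq transcription start on GRCh38.p14, 5′ to 3′ on the gene's strand. Capitals mark letters that match an E2F element, searched as TTTCCCGC, TTTCGCGC, TTTGCCGC or TTTGGCGC on either strand.
HELLS: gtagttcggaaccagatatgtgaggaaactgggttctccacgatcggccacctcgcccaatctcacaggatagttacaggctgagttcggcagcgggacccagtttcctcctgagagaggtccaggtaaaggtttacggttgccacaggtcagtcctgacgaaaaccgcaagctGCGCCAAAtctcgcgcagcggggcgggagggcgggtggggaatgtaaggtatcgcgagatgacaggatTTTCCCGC
CCNE1: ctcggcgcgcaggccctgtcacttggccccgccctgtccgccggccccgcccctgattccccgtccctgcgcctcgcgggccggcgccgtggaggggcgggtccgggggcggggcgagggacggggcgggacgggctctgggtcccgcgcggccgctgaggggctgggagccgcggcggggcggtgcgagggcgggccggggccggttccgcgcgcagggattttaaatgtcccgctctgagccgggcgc
CHAF1A: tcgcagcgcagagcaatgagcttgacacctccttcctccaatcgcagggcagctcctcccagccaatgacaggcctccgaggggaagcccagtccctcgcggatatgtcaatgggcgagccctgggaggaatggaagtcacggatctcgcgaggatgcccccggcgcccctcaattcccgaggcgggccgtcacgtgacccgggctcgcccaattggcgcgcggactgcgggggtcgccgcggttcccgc
GINS2: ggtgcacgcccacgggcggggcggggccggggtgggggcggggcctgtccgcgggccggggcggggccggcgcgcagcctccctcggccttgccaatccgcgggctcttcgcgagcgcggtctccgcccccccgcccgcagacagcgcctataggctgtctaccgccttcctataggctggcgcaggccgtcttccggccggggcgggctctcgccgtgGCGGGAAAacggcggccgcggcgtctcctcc
E2F1: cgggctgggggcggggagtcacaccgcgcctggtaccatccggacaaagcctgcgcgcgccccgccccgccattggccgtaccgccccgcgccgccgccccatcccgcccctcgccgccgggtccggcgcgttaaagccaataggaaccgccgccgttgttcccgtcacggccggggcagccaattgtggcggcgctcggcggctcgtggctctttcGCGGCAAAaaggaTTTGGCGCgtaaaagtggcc
The HELLS window is chr10:94545538-94545787 on the plus strand and holds 2 matches, the nearer ending 1 base before the start. The GINS2 window is chr16:85688955-85689204 on the minus strand and holds 1 match, ending 24 bases before the start. The E2F1 window is chr20:33686386-33686635 on the minus strand and holds 2 matches, ending 26 and 13 bases before the start. The CCNE1 window, chr19:29811741-29811990, and the CHAF1A window, chr19:4402390-4402639, both on the plus strand, hold none of these letters, which says nothing of what binds there.

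Over 300-base windows (250 bases before and 50 after the start), a promoter was given for 44 of the 53 genes. An E2F match was found in 23 of the 44 (52.3%), against 3.99% of 27305 genes with a window and 6.9% of the 10145 of those that averaged 1 TPM or more in the ZNF683 and Mock table. The CCAAT box, searched as CCAAT on either strand, was found in 28 of the 44 (63.6%), against 43.6% of those expressed genes. The cell cycle homology element of late cell cycle genes, searched as TTTGAA or TTCGAA, was found in 3 of the 44 (6.82%), against 15.5%. The letters searched for 1 element do not contain those of another. The 5 genes shown include some with and some without an E2F match, and a match is a description of letters only.

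The level of these genes ranged widely within a library. The highest in every group was TYMS, thymidylate synthase, the enzyme that makes dTMP and the target of 5-fluorouracil, with a mean of 787 ± 48.8 TPM in ZNF683 libraries and 899 ± 144 TPM in Mock libraries (SD, n = 3 each). It had 782 ± 89.1 TPM in Dox+ libraries and 564 ± 192 TPM in Dox- libraries. The lowest in every group was CCNE1, cyclin E1, which averaged 10.5 ± 1.95 TPM in ZNF683 libraries, 6.92 ± 0.466 TPM in Mock libraries, 10.3 ± 0.513 TPM in Dox+ libraries and 7.49 ± 3.37 TPM in Dox- libraries. CCNE2, cyclin E2, was present at a mean of 116 TPM in ZNF683 libraries and 97.1 TPM in Mock libraries, so the second cyclin E gene carried most of the cyclin E transcript in TPM. A mean over 100 TPM was reached by 27 of the 53 genes in ZNF683 libraries, 25 in Mock, 24 in Dox+ and 18 in Dox- libraries.

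The order of subunits within a complex was steadier for some complexes than for others, and the plot of MCM and replication factor C subunits shows the levels of 2 of them. MCM7 was the highest of the 6 helicase subunits MCM2 to MCM7 in 11 of 12 libraries, and MCM4 in the other, Dox- library 2. The lowest was MCM2 in 7 libraries and MCM6 in 5. The ratio of the highest to the lowest MCM subunit lay between 2.14 and 2.998. Among the 5 subunits of replication factor C, RFC4 was the highest in all 12 libraries and RFC1, the large subunit, the lowest in 11, with RFC3 lowest in Dox- library 2. That ratio lay between 3.11 and 5.54, the highest in Dox- library 2. GINS3 was the lowest of the 4 GINS subunits in all 12 libraries, while GINS1 and GINS2 were each the highest in 6. Of the 3 subunits of replication protein A, which coats single-stranded DNA, RPA3 was the highest in 8 libraries and RPA1 in 4, while RPA2 was the lowest in 9, RPA3 in 2 and RPA1 in 1.

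**Figure D1:**
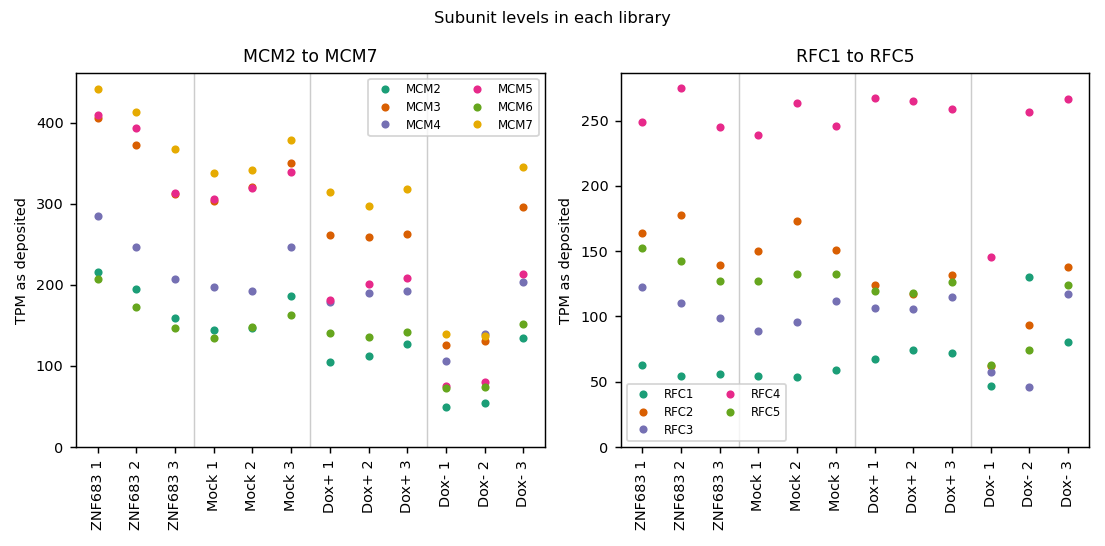
Level in TPM as deposited (y axis) of MCM2 to MCM7 (left) and RFC1 to RFC5 (right) in each of the 12 libraries (x axis), 1 point per subunit and library. MCM7 and RFC4 lie on top in nearly all libraries, Dox- libraries 1 and 2 lie low for most subunits, and RFC1 stands at 129.9 TPM in Dox- library 2 beside 46.9 and 80.3 TPM for Dox- libraries 1 and 3.

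ZNF683 libraries were set against Mock libraries to ask how induced ZNF683 changes the transcriptome, and none of the 53 replication genes passed the test. The test was limma on log2(TPM + 1), two-sided, with p-values adjusted by the Benjamini-Hochberg method over all 16588 genes and a threshold of 0.05. It called 5 genes (0.0301%), and 0 of the 53, whose smallest adjusted p was 0.283. At an unadjusted p under 0.05 there were 3 of the 53 (5.66%), against 13% of all genes tested. The 3 were CCNE1 and CHAF1A, higher in ZNF683 libraries, and HELLS, lower there, where 6.55% of all genes were higher and 6.42% lower at that threshold. That count depended on single libraries: it was 16 (30.2%) without ZNF683 library 3, against 19.2% of all genes in that fit, and 9 (17%) without Mock library 3, against 22.5%. None of the 53 passed the adjusted threshold in either fit.

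The differences were mostly small and above 0. The log2 change was positive for 43 of the 53 genes (81.1%), against 54.9% of all genes, and its median was 0.12, against 0.028 over all genes tested. All genes were not matched to the 53 for level. The median of the 53 exceeded that of all genes by 0.094, and by 0.040 in the fit of genes averaging at least 5 TPM. Single genes had a standard error of 0.12 in the median, the same size as the median change. The widest 95% intervals reached from -0.73 (RPA3) to 0.86 (CDT1). When libraries were scaled by median of ratios, which sets the typical gene to the same level in every library, 41 of 53 changes were positive, against 49.9% of all genes, with a median of 0.089, and 5 of the 53 had an unadjusted p under 0.05, against 14.2%. The summed level of the 53 genes was 8440, 8225 and 7369 TPM in ZNF683 libraries 1 to 3, against 7162, 7731 and 7690 TPM in Mock libraries. ZNF683 library 3 lay within the Mock range and the other two above it (8011 ± 566 against 7528 ± 317 TPM, SD, n = 3 each, exact permutation p = 0.3). HSPA6, a heat shock gene outside the 53, had 0.515, 0.399 and 0.618 TPM in ZNF683 libraries, against 6.85, 5.88 and 4.06 TPM in Mock libraries, without overlap, and its part in these changes was not tested.

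**Figure D2:**
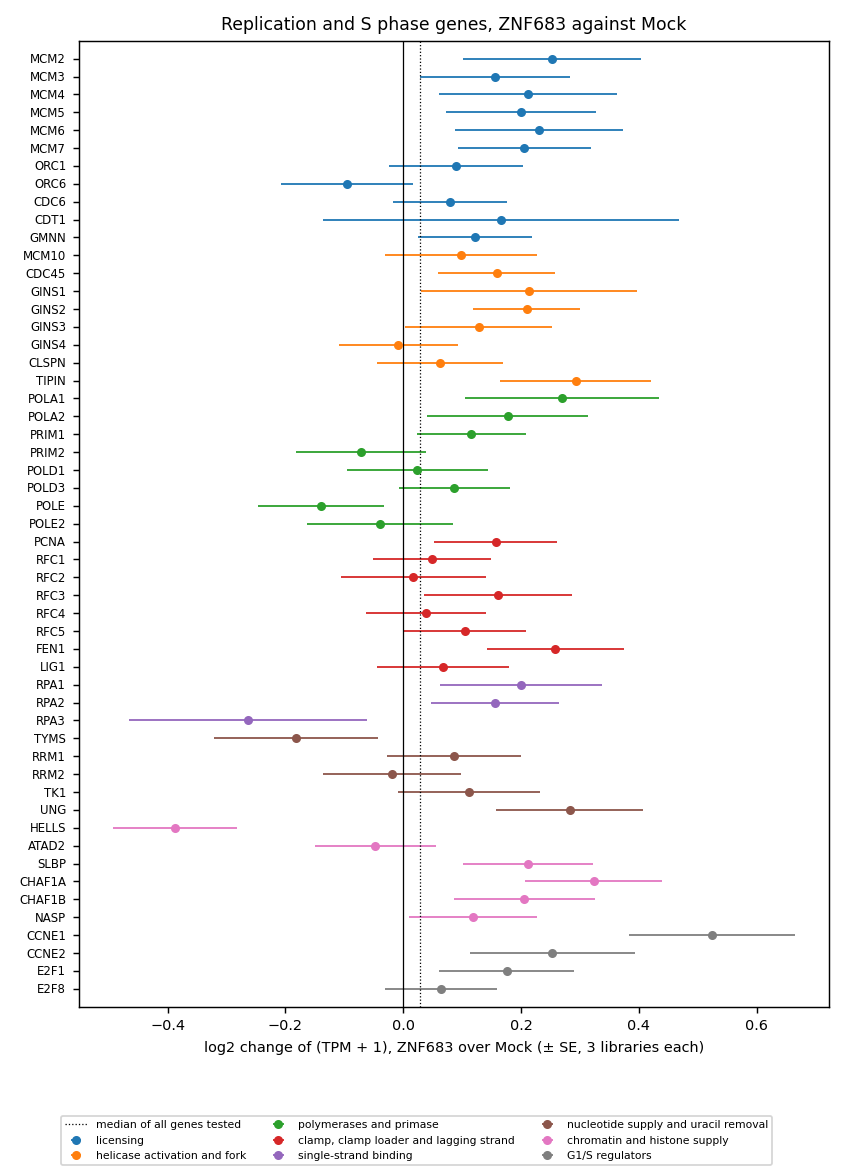
The log2 change of (TPM + 1), ZNF683 over Mock (x axis), for each of the 53 genes (y axis), with bars of 1 standard error and colours for the role of the product, 3 libraries per group. The dotted line is the median of all genes tested, 0.028, and 43 genes lie above 0, CCNE1 at 0.52 farthest to the right and HELLS at -0.39 farthest to the left.

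The 4 regulators of the G1/S step had a positive change in each case, with a median of 0.21. CCNE1, the regulatory partner of CDK2, had 8.96, 12.7 and 9.83 TPM in ZNF683 libraries, against 6.57, 6.76 and 7.45 TPM in Mock libraries. All 3 ZNF683 values lay above all 3 Mock values, a log2 change of 0.52 ± 0.14 (SE; limma adjusted p = 0.283; 95% interval 0.20 to 0.85). E2F1, an activating member of the E2F family, had 23.1, 27.6 and 23.7 TPM in ZNF683 libraries, against 23.0, 22.7 and 19.8 TPM in Mock libraries. Those groups did not overlap either, though the nearest values, 23.1 in ZNF683 and 23.0 in Mock, almost met, and they did overlap under median-of-ratios scaling. CCNE2 changed by 0.25 ± 0.14 and E2F8, an E2F that represses the same targets later in the cycle, by 0.06 ± 0.09, both with overlapping groups. Groups that did not overlap were counted for 8 of the 53 genes higher in ZNF683 libraries, against 8.71% of all genes, and for 1 lower, against 8.51%. The 8 were CCNE1, E2F1, CHAF1A, PCNA, GINS2, CDC45, GMNN and PRIM1. Under median-of-ratios scaling there were 10 higher, against 9.44% of all genes, and 2 lower (HELLS and POLE), against 10.1%.

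Among the 6 chromatin genes the 2 with the smallest p lay on opposite sides. HELLS, a chromatin remodelling ATPase needed for DNA methylation, had 69.9, 63.1 and 71.7 TPM in ZNF683 libraries, against 95.2, 91.7 and 81.8 TPM in Mock libraries. Every ZNF683 value lay below every Mock value, a log2 change of -0.39 ± 0.11 (limma adjusted p = 0.283; 95% interval -0.63 to -0.14). CHAF1A, the large subunit of chromatin assembly factor 1, which places histones on new DNA behind PCNA, had 27.6, 34.5 and 31.5 TPM in ZNF683 libraries, against 23.0, 26.5 and 24.6 TPM in Mock libraries. The groups did not overlap, and the log2 change was 0.32 ± 0.12 (limma adjusted p = 0.345). Its partner CHAF1B had a change of 0.21 ± 0.12 with overlapping groups. SLBP, which binds the stem-loop of histone mRNAs, had 297, 307 and 260 TPM in ZNF683 libraries, against 231, 249.9 and 264 TPM in Mock libraries. ZNF683 library 3 was again the low one of its group and lay below the highest Mock value, an overlap that median-of-ratios scaling removed. The histone chaperone NASP and the bromodomain ATPase ATAD2 had changes of 0.12 and -0.05.

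**Figure D3:**
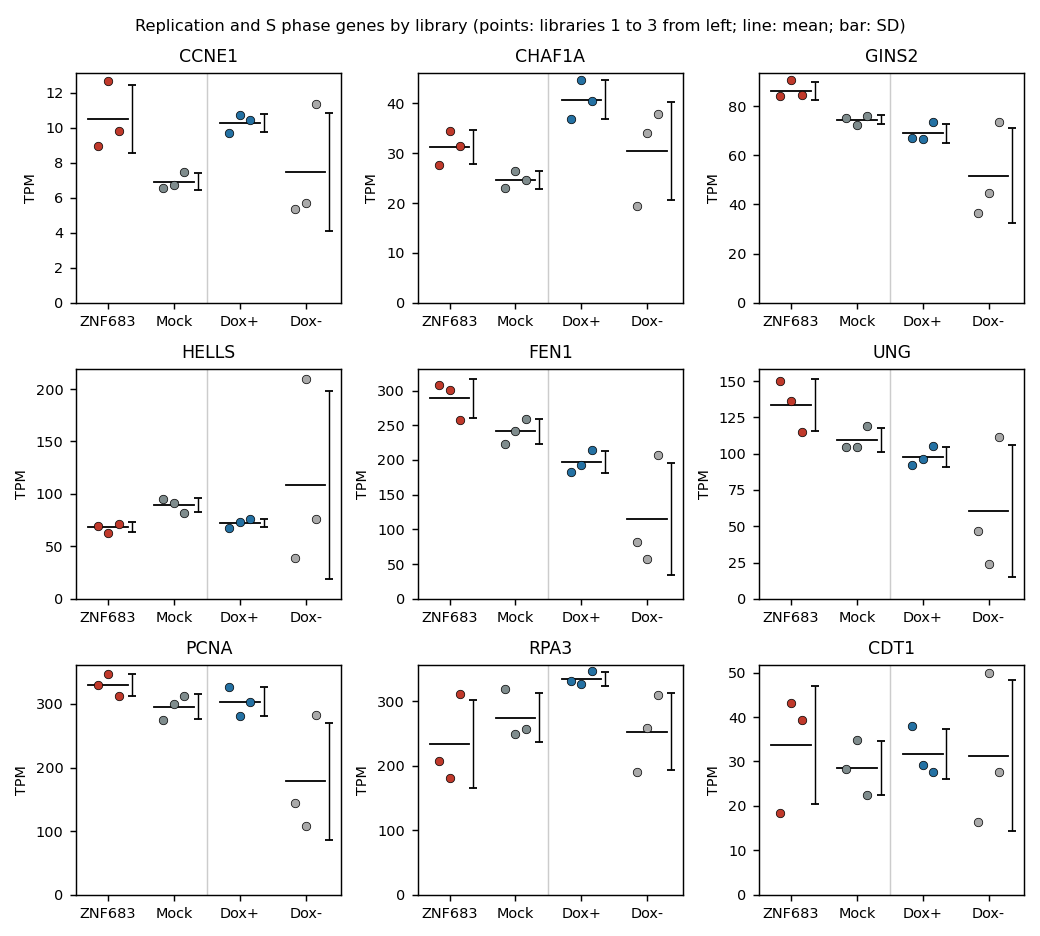
Level in TPM as deposited (y axis) of 9 of the genes in ZNF683, Mock, Dox+ and Dox- libraries (x axis); points are libraries 1 to 3 from left to right, lines are means and bars are SD. The 3 HELLS points of ZNF683 lie between 63.1 and 71.7 TPM, below the Mock points, and in Dox- the second point stands at 209 TPM for HELLS but at 23.9 TPM for UNG.

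The 11 licensing genes had a median change of 0.17 and 10 of 11 were positive, with groups that did not overlap for GMNN alone. The 6 helicase subunits stood close together, between 0.16 for MCM3 and 0.25 ± 0.15 for MCM2. MCM5 had 409, 393 and 314 TPM in ZNF683 libraries, against 306, 319 and 339.6 TPM in Mock libraries. ZNF683 libraries 1 and 2 lay above Mock and library 3 within it, and for each of MCM2 to MCM7 library 3 was the lowest of its group. GMNN, geminin, had 149.8, 164 and 152 TPM in ZNF683 libraries, against 135, 143 and 149 TPM in Mock libraries. CDC6, the loader that works with the origin recognition complex, had a change of 0.08 ± 0.10. CDT1, its partner in loading, varied most in the ZNF683 group, with 18.5, 43.2 and 39.3 TPM, against 28.3, 34.7 and 22.5 TPM in Mock libraries, and its change of 0.17 ± 0.30 was negative without ZNF683 library 2 (-0.05). ORC1 and ORC6, subunits of the origin recognition complex, had changes of 0.09 and -0.10.

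Among the 8 genes of helicase activation and the fork, 7 were positive, with a median of 0.14. GINS2, a subunit of the GINS part of the active helicase, had 84.0, 90.5 and 84.3 TPM in ZNF683 libraries, against 75.1, 72.5 and 75.8 TPM in Mock libraries. The groups did not overlap, and the change was one of 0.21 ± 0.09 (limma adjusted p = 0.385). CDC45, the other helicase partner, had 145, 140.2 and 127 TPM in ZNF683 libraries, against 117, 125 and 126 TPM in Mock libraries, also without overlap. TIPIN, which with TIMELESS stabilises stalled forks, had 57.7, 59.9 and 50.2 TPM in ZNF683 libraries, against 42.5, 41.4 and 52.9 TPM in Mock libraries, with overlap through ZNF683 library 3 and Mock library 3. GINS1 had a change of 0.21 ± 0.18, GINS3 of 0.13 ± 0.12 and GINS4 of -0.01 ± 0.10. CLSPN, claspin, the adaptor that passes the checkpoint signal to CHK1, and MCM10 had changes of 0.06 ± 0.11 and 0.10 ± 0.13, which were -0.01 without Mock library 1 for CLSPN and -0.0034 without ZNF683 library 1 for MCM10.

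The polymerase genes were split. Of 8 genes for polymerases and primase, 5 had a positive change and the median was 0.06. POLA1, the catalytic subunit of polymerase alpha, had 26.5, 22.02 and 21.2 TPM in ZNF683 libraries, against 17.2, 16.5 and 24.4 TPM in Mock libraries, with overlap through Mock library 3. POLE, the catalytic subunit of the leading strand polymerase epsilon, had 26.6, 26.8 and 25.5 TPM in ZNF683 libraries, against 25.8, 30.9 and 30.8 TPM in Mock libraries. Its change was -0.14 ± 0.11, and under median-of-ratios scaling its groups did not overlap (-0.17 ± 0.08, limma adjusted p = 0.381). The primase subunits PRIM1 and PRIM2 had changes of 0.12 and -0.07, and POLD1, the catalytic subunit of polymerase delta, had one of 0.02.

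All 8 genes of the clamp, its loader and lagging strand processing had a positive change, with a median of 0.09, although RFC2 was at -0.02 under median-of-ratios scaling. PCNA had 329, 348 and 313 TPM in ZNF683 libraries, against 275, 301 and 312 TPM in Mock libraries, so that ZNF683 library 3 and Mock library 3 nearly met. Its change was 0.16 ± 0.10. FEN1, the nuclease that removes RNA primer flaps, had 308, 301 and 257 TPM in ZNF683 libraries, against 222, 241 and 259 TPM in Mock libraries. These overlapped by the lowest ZNF683 and the highest Mock value, and the change was 0.26 ± 0.12 (limma adjusted p = 0.392). Under median-of-ratios scaling the groups did not overlap (0.23 ± 0.09, limma adjusted p = 0.345). LIG1, the ligase that seals lagging strand fragments, had a change of 0.07 ± 0.11, and the 5 loader subunits had changes between 0.02 for RFC2 and 0.16 for RFC3.

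RPA1 and RPA2 had changes of 0.20 ± 0.14 and 0.16 ± 0.11, while RPA3 had one of -0.26 ± 0.20. RPA3 had 208, 181 and 311 TPM in ZNF683 libraries, against 318, 249 and 257 TPM in Mock libraries. ZNF683 libraries 1 and 2 lay below every Mock value, and the groups overlapped through ZNF683 library 3 alone. That library was the high one of its group for RPA3, the reverse of its place for RPA1 (380.5, 347 and 288 TPM in ZNF683 libraries, against 270.1, 282 and 329.8 TPM in Mock libraries). Of the 5 genes of nucleotide supply and uracil removal, 3 had a positive change. UNG, the glycosylase that cuts uracil from DNA, had 150.1, 136 and 115 TPM in ZNF683 libraries, against 105, 104 and 119 TPM in Mock libraries, a change of 0.28 ± 0.13 (limma adjusted p = 0.390), and these groups did not overlap under median-of-ratios scaling. TYMS had a change of -0.18 ± 0.14, which was -0.06 without Mock library 2 and -0.27 without Mock library 3. RRM2, the small subunit of ribonucleotide reductase, had one of -0.02 ± 0.12, which was 0.04 without ZNF683 library 3 and 0.06 without Mock library 2. RRM1, the large subunit, and the salvage enzyme TK1 had changes of 0.09 and 0.11.

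Dox+ libraries were set against Dox- libraries to ask what doxycycline changes in the Hobit line, and again none of the 53 genes passed. In this table limma tested 15148 genes and called 60 (0.396%), of the 53 genes 0, with a smallest adjusted p of 0.717. At an unadjusted p under 0.05 there were 4 of the 53 (7.55%), all higher in Dox+ libraries, against 4.69% of all genes higher and 1.65% lower. They were FEN1, UNG, PCNA and MCM5, with log2 changes of 0.98 ± 0.43, 0.95 ± 0.43, 0.88 ± 0.43 and 0.84 ± 0.43 (limma adjusted p = 0.717 to 0.737). In this fit as deposited the SE is the one typical of a gene's level, in place of the gene's own spread. None of the 4 was left at that threshold when libraries were scaled by median of ratios, when any 1 library other than Dox- library 3 was left out, or when AL135790.1 was left out. Without Dox- library 3 there were 31 of the 53 (58.5%), against 36.7% of all genes, and 18 (34%) passed the adjusted threshold, against 18.4% of all genes.

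A shift common to most genes lay under these changes. The median log2 change over all genes tested was 0.32. Median-of-ratios scaling lowered the changes of the 53 genes by 0.33 to 0.37, so their deposited changes are to be read against that range. The median of the 53 genes was 0.46, and 50 of 53 were positive (94.3%), against 79.1% of all genes. That median exceeded the median of all genes by 0.14, and by 0.060 in the fit of genes averaging at least 5 TPM. Under median-of-ratios scaling the medians were 0.10 for the 53 and 0.0018 for all genes, 36 of 53 were positive, against 50.3% of all genes, and limma called 0 of the 15148 genes, with 469 at an unadjusted p under 0.05 (3.1%). The summed level was 6965, 6743 and 6936 TPM in Dox+ libraries 1 to 3, against 3532, 4901 and 7140 TPM in Dox- libraries 1 to 3. The first 2 Dox- libraries lay far below and the third above every Dox+ library (6881 ± 120 against 5191 ± 1821 TPM, SD, n = 3 each, exact permutation p = 0.4). After median-of-ratios scaling the sums were 6052 ± 132 in Dox+ libraries and 5690 ± 654 in Dox- libraries (exact permutation p = 0.6). The median coefficient of variation of the 53 genes was 5.86% within Dox+ and 40.8% within Dox- libraries, beside 9.61% within ZNF683 and 7.71% within Mock libraries. After scaling it was 6.59% within Dox+ and 19.6% within Dox- libraries, and 8.36% within ZNF683 and 5.33% within Mock libraries.

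Each of the 3 Dox- libraries was therefore compared with the Dox+ mean by itself. In Dox- library 1 the RNA AL135790.1 held 50.7% of all TPM, while its share was 12.8% in Dox- library 2 and between 6.65 and 10.5% elsewhere in the table. Against that library all 53 genes were higher in Dox+, with a median log2 ratio of 0.98 and an SD over genes of 0.17, and the median of all genes was also 0.98. The ratios ran from 0.60 for RFC1 to 1.41 for POLD1, and scaling by median of ratios brought their median to 0.0018. Against Dox- library 3 the median was -0.08, the same as that of all genes, and the ratios ran from -0.34 for POLE to 0.18 for CDT1. The SD over genes was 0.11 there, so in Dox- libraries 1 and 3 the 53 genes stood close to the proportions they had in Dox+ libraries.

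Dox- library 2 was the one in which the 53 genes parted from each other. After scaling, the log2 ratio of the Dox+ mean to that library had a median of 0.23 and an SD of 0.73, where all 14852 genes above 0 in the 6 libraries had -0.01 and 1.13. The ratio was above 1 for 9 of the 53 genes, against 12.9% of all genes, and below -1 for 3, against 16.4%. The 9 were UNG (1.84), FEN1 (1.59), PCNA (1.30), GINS1 (1.28), E2F8 (1.24), GINS3 (1.17), CCNE2 (1.15), MCM5 (1.09) and RFC3 (1.04), and the 3 were HELLS (-1.74), POLE (-1.33) and RFC1 (-1.07). Against Dox- library 1 no gene of the 53 passed either limit, where 1.35% of all genes lay above 1 and 2.83% below -1. Against Dox- library 3 none did either, where 0.896% and 0.943% did. HSPA6 had 637 TPM in Dox- library 2 and at most 0.351 TPM in the other 5 libraries of the table. Its part in these ratios was not tested.

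**Figure D4:**
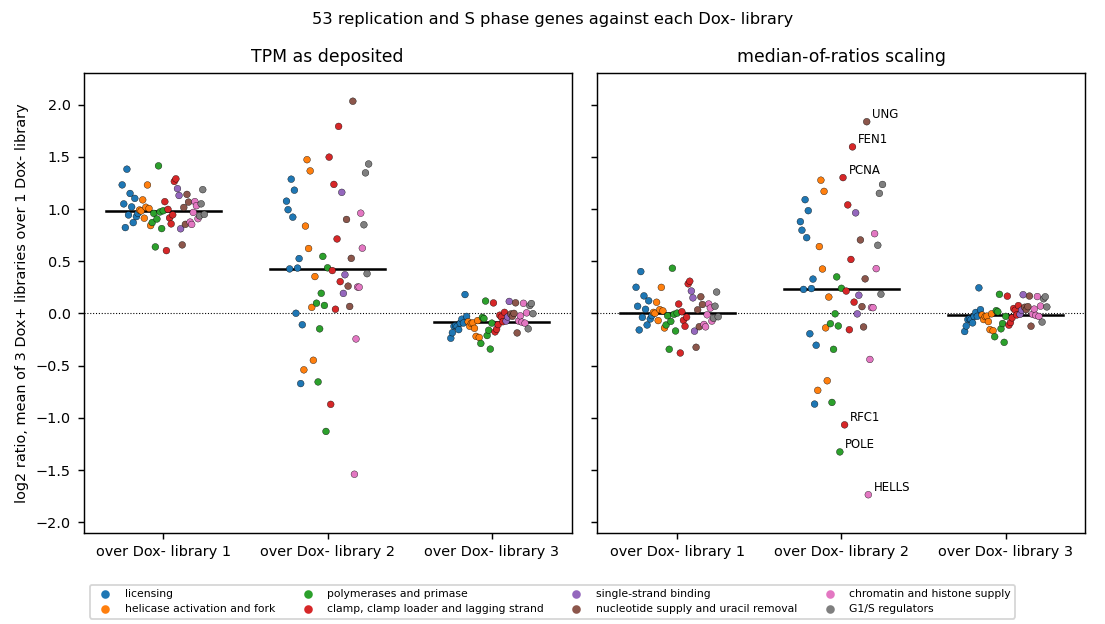
Log2 ratio of the mean of the 3 Dox+ libraries to each single Dox- library (y axis) for the 53 genes, by Dox- library (x axis), with TPM as deposited (left) and after median-of-ratios scaling (right); horizontal lines are medians and colours are roles. Dox- library 1 lies at a common ratio near 0.98 that scaling brings to 0, while Dox- library 2 keeps a spread from UNG at 1.84 to HELLS at -1.74.

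The values show that spread gene by gene. FEN1 had 183, 193 and 215 TPM in Dox+ libraries, against 81.8, 56.8 and 208 TPM in Dox- libraries. UNG had 91.9, 96.2 and 105 TPM in Dox+ libraries, against 46.7, 23.9 and 111 TPM in Dox- libraries. Both genes had their lowest value in Dox- library 2 and a value inside or above the Dox+ range in Dox- library 3. PCNA had 327, 281 and 303 TPM in Dox+ libraries, against 144, 107 and 283 TPM in Dox- libraries. HELLS had 67.7, 73.0 and 75.7 TPM in Dox+ libraries, against 39.3, 209 and 75.8 TPM in Dox- libraries. In Dox- library 2 HELLS had the highest and PCNA the lowest of its values in all 12 libraries. The HELLS change of -0.25 ± 0.43 was 0.39 without Dox- library 2. RFC1 had 67.2, 74.2 and 72.1 TPM in Dox+ libraries, against 46.9, 129.9 and 80.3 TPM in Dox- libraries. POLE had 19.9, 22.2 and 15.9 TPM in Dox+ libraries, against 10.9, 41.9 and 24.3 TPM in Dox- libraries, a change of -0.22 ± 0.43 that was 0.22 without Dox- library 2.

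Role by role the picture in Dox- library 2 differed. The 4 G1/S regulators had the highest median ratio of Dox+ to that library after scaling, 0.90, with a range of 0.18 to 1.24. The 8 polymerase and primase genes had the lowest, -0.11, with a range of -1.33 to 0.35, beside -0.01 over all genes. Licensing genes had a median of 0.33, but CDT1 stood at -0.87, with 38.1, 29.1 and 27.7 TPM in Dox+ libraries, against 16.5, 49.9 and 27.6 TPM in Dox- libraries. The clamp group ran from RFC1 at -1.07 to FEN1 at 1.59. This is 1 library, in which the SD was 1.13 over all genes and 0.73 over the 53. Subunits of one complex differed too, with RFC3 at 1.04 beside RFC1, and GINS1 at 1.28 beside GINS4 at -0.14. MCM10, which joins the helicase to polymerase alpha, stood at -0.74 and CLSPN at -0.64.

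Over the whole comparison, groups that did not overlap were counted for 4 genes higher in Dox+ libraries, against 7.91% of all genes, and for 0 lower, against 0.891%. The 4 were CCNE2, E2F1, TK1 and RPA3. CCNE2 had 98.4, 106 and 104 TPM in Dox+ libraries, against 49.7, 40.5 and 97.6 TPM in Dox- libraries. The Dox+ values lay just above that of Dox- library 3. E2F1 had 19.1, 16.9 and 17.8 TPM in Dox+ libraries, against 7.89, 13.8 and 16.8 TPM in Dox- libraries, again separated by little. TK1 had 49.9, 49.3 and 53.8 TPM in Dox+ libraries, against 23.1, 35.3 and 47.5 TPM in Dox- libraries. TK1 and E2F1 kept groups that did not overlap after median-of-ratios scaling, along with LIG1 and RRM1, 4 genes higher in Dox+ libraries against 5.82% of all genes. RFC1 was then the 1 gene lower without overlap, against 5.86%.

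The scaling lowered the changes of the 53 genes nearly alike, by 0.33 to 0.37, so every gene with a smaller positive change as deposited turned negative by construction. MCM10 had a log2 change of 0.12 as deposited and -0.24 after median-of-ratios scaling. CDT1 had 0.14 and -0.22, CLSPN 0.15 and -0.20, POLA1 0.21 and -0.13, GMNN 0.27 and -0.10, RRM2 0.31 and -0.06, and TIPIN 0.31 and -0.05 under the 2 scalings in that order. CCNE1 stayed positive at 0.48 and 0.15, with 9.72, 10.7 and 10.4 TPM in Dox+ libraries, against 5.38, 5.71 and 11.4 TPM in Dox- libraries. MCM2 had changes of 0.68 and 0.31, RPA1 of 0.76 and 0.39, and E2F8 of 0.75 and 0.39. CHAF1A, with 36.9, 44.8 and 40.5 TPM in Dox+ libraries against 19.3, 34.1 and 38.0 TPM in Dox- libraries, had changes of 0.46 and 0.10, and its Dox- library 3 value lay within the Dox+ range.

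Whether the changes of the 2 comparisons differed was tested by 1 contrast over all 12 libraries. Limma called 2 of 14468 genes (0.0138%) and 0 of the 53, of which 0 were at an unadjusted p under 0.05, against 3.75% of all genes. The genes with the smallest p were RPA3, TYMS and PCNA, whose change for Dox+ over Dox- exceeded that for ZNF683 over Mock by 0.69, 0.70 and 0.73 on the log2 scale (limma adjusted p = 0.876). The standard error of this difference lay between 0.35 and 0.55 for the 53 genes. The contrast used 1 spread per gene for all 4 groups, although the groups varied unequally. The median coefficient of variation was 40.8% within Dox- and 5.86 to 9.61% within the other groups, which limits these SE and p-values. For HELLS the difference was 0.14 and for CCNE1 -0.04. All these differences are of changes as deposited and include the shift common to most genes. The median change over all genes was 0.32 for Dox+ over Dox- and 0.028 for ZNF683 over Mock. After median-of-ratios scaling RPA3, TYMS and PCNA had changes of 0.06, 0.15 and 0.52 for Dox+ over Dox-. For ZNF683 over Mock the scaled changes of the same genes were -0.30, -0.22 and 0.12.

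The changes were also set out by whether the promoter window held an E2F match, without a test. In ZNF683 over Mock the median log2 change was 0.16 over the 23 genes with a match and 0.11 over the 21 without. After median-of-ratios scaling these medians were 0.13 and 0.07. As deposited, 19 of the 23 and 18 of the 21 were positive, so the positive share was no higher with a match. In Dox+ over Dox- the medians were 0.51 and 0.41 as deposited, and 0.15 and 0.05 after median-of-ratios scaling.

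Other genes of the same pathway were measured too, and limma placed 0 of them past the adjusted threshold in ZNF683 over Mock. The counts below stand beside 54.9% of all genes with a positive change and 13% at an unadjusted p under 0.05. Of 33 further replication genes, 22 had a positive change, with a median of 0.09 and 1 at an unadjusted p under 0.05. That gene was MCMBP, the MCM binding protein, with 16.9, 34.9 and 31.9 TPM in ZNF683 libraries, against 13.3, 15.5 and 17.1 TPM in Mock libraries, where ZNF683 library 1 lay within the Mock range. Of 24 further G1/S regulators, 17 (70.8%) were positive and 4 (16.7%) were at an unadjusted p under 0.05, among them CDKN2C, the CDK4 and CDK6 inhibitor p18, with 45.7, 96.1 and 78.2 TPM in ZNF683 libraries, against 43.7, 41.1 and 42.6 TPM in Mock libraries. TFDP1, the DNA-binding partner of E2F factors, had 49.8, 54.3 and 48.7 TPM in ZNF683 libraries, against 37.7, 40.7 and 45.8 TPM in Mock libraries. Of 10 further nucleotide supply genes 5 were positive, and RRM2B, the ribonucleotide reductase subunit of resting and damaged cells, had 8.03, 6.90 and 6.34 TPM in ZNF683 libraries, against 9.77, 9.66 and 12.5 TPM in Mock libraries (limma adjusted p = 0.283). Of 14 replication checkpoint genes 10 were positive, and ATRIP, which brings ATR to single-stranded DNA, had a change of 0.33 (limma adjusted p = 0.335).

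In Dox+ over Dox- these lists had medians of 0.39, 0.44, 0.43 and 0.34 for further replication, G1/S, nucleotide and checkpoint genes as deposited, and of 0.03, 0.08, 0.06 and -0.02 after median-of-ratios scaling. None of their genes passed the adjusted threshold. CDKN2C had 95.8, 104 and 99.6 TPM in Dox+ libraries, against 39.3, 49.1 and 76.3 TPM in Dox- libraries. Its groups did not overlap, as in ZNF683 over Mock. Of all genes, 7.91% were higher without overlap in Dox+ and 8.71% in ZNF683 libraries, and the share in both is not given here. The CDKN2C change was 0.90 as deposited (limma unadjusted p = 0.036, adjusted p = 0.737). After scaling it was 0.54 (limma unadjusted p = 0.010). CCND3, cyclin D3, had 513, 481 and 470.3 TPM in Dox+ libraries, against 173, 273 and 386 TPM in Dox- libraries. Its change of 0.89 as deposited was 0.52 after scaling.

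The libraries carried T cell transcripts throughout, with all 10 T cell markers looked for, such as CD3D and LCK, averaging over 1 TPM in both tables. Their summed level was 4042 to 4381 TPM in ZNF683 libraries and 3856 to 4494 TPM in Mock libraries, and 3452 to 3750 TPM in Dox+ libraries and 1445 to 3058 TPM in Dox- libraries. Of 4 myeloid markers 0 reached a mean of 1 TPM in either table, with 1.11 TPM for ITGAM the highest single value. Of 4 B cell markers 2 reached that mean in the ZNF683 and Mock table and 1 in the Dox+ and Dox- table, with CD79A at up to 54.7 TPM. Of 4 further genes looked for, EPCAM, KRT8, COL1A1 and PECAM1, 3 reached it in both tables, with PECAM1 at up to 108 TPM. Of 3 erythroid markers 1 reached it in each table, and HBA1 stood at 19.5 TPM in 1 Dox- library. The part of these in the values above was not tested.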

How the data were processed

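The authors deposited 2 tables of TPM per gene symbol, 1 for ZNF683 and Mock libraries and 1 for Dox+ and Dox- libraries, per the file headers. Tools listed in the submitters' processing notes are kallisto 0.46.0 and DESeq2 1.22.2, without saying what each did. Not given in the sources used here are the build and the transcripts. Since TPM keeps no read number, depth is unknown and intervals for counting error were not computed. TPM values of a library share 1 total, so 1 very abundant transcript depresses the rest.

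Groups came from titles and genotype labels. Each comparison was fitted in its own table, on genes averaging 1 TPM or more over its 6 libraries, with limma 3.58.1 in R 4.3.3 on log2(TPM + 1), moderated by empirical Bayes along a trend of variance with mean, two-sided tests and Benjamini-Hochberg adjustment over all genes at 0.05. Log2 changes are given ± SE and understate those of low genes. In the doxycycline table as deposited the prior degrees of freedom were unlimited, so tests there used the spread typical of a gene's level in place of its own. The SE and p-values of that fit do not reflect how much a single gene varied between its libraries. Median-of-ratios factors were taken over tested genes above 0 in all 6 libraries. Sums and ZNF683 were compared by exact permutation tests. The scripts were tested on simulated data.

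The 53 genes, the other gene lists and the tests were chosen with earlier results of these data known. Named genes were the 8 with the smallest p per comparison, a panel covering each role, and up to 3 per other list. The promoters printed, the promoter letters searched and the genes named for non-overlapping groups, subunit order or their ratio to single Dox- libraries were picked after values were seen. Promoter sequences are from RefSeq on GRCh38.p14. Alternatives were other pseudocounts, filters, scalings and moderation, a replicate block, and leaving out each library. Replicate numbers were not used to pair the samples in the main fits, and the labels do not say whether same-numbered samples belong together. Deviations of same-numbered samples correlated between -0.25 and 0.07 for ZNF683 and Mock, and between 0.05 and 0.36 for Dox+ and Dox-. Such correlations cannot decide whether the samples were paired.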

Additional observations from a re-analysis of the deposited data

How the results depend on the processing

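None of the 53 genes passed the adjusted threshold in ZNF683 over Mock under any of the 14 alternatives, and in Dox+ over Dox- 18 passed without Dox- replicate 3 and none under the other alternatives run. The cause of the differences between settings was not tested. Depth is unknown, so what it limits cannot be stated.

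In ZNF683 over Mock, where 5 genes in all were called, 3 were called with a pseudocount of 0.1, 8 with robust moderation, and 0 with a pseudocount of 5, without a filter, with a mean of at least 5 TPM or with the replicate block (at an unadjusted p under 0.05 these 4 gave 2140, 3957, 1456 and 1516 genes). Leaving out 1 library gave 0 (without Mock 2, 1117 at an unadjusted p under 0.05) to 49 (without ZNF683 1). Of the 53 genes 3 were at an unadjusted p under 0.05, against 13% of all genes, and 5 with a pseudocount of 5 (12.9% of all genes) or median-of-ratios scaling (14.2%). Leaving out 1 library gave 2 (without ZNF683 2, 6.24% of all genes, or without Mock 1, 9.51%) to 16 (without ZNF683 3, 19.2%). Their median change minus that of all genes was 0.094. Over the alternatives it was 0.040 (with a mean of at least 5 TPM) to 0.13, and 0.059 to 0.13 leaving out 1 library.

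In Dox+ over Dox-, where 60 genes were called, 23 were called with robust moderation, 34 with the replicate block, 15 with a mean of at least 5 TPM, and 0 without a filter (1082 at an unadjusted p under 0.05), with median-of-ratios scaling (469) or without AL135790.1 (508). Leaving out 1 library gave 0 (without Dox- 1, 446 at an unadjusted p under 0.05) to 2788 (without Dox- 3). Of the 53 genes 4 were at an unadjusted p under 0.05, 2 with the replicate block (3.86% of all genes), 0 without a filter, with median-of-ratios scaling or without AL135790.1, and 0 to 31 leaving out 1 library (31 without Dox- 3, 36.7% of all genes). Their median minus that of all genes was 0.14. It was 0.45 without a filter and 0.060 with a mean of at least 5 TPM. With 1 library left out it was 0.056 (without Dox- 2) to 0.20 (without Dox- 3). Median-of-ratios scaling with Dox- 1, Dox- 2 or both left out was added after seeing the data: it called 0, 1 and 0 genes, had 0 of the 53 at an unadjusted p under 0.05, and gave medians of 0.12, -0.00021 and -0.0027.

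The contrast of the 2 changes called 2 genes, 1 with median-of-ratios scaling or without AL135790.1, 60 with the replicate block, and 1 to 2550 leaving out 1 library (2550 without Dox- 3, 25 without Dox- 2).

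Over 29 named genes and 14 alternatives, ZNF683 over Mock turned direction 5 times, each with 1 library left out. The ranges over libraries left out were -0.0034 (without ZNF683 1) to 0.20 for MCM10, -0.054 (without ZNF683 2) to 0.54 for CDT1, -0.0051 (without Mock 1) to 0.11 for CLSPN and -0.075 to 0.065 for RRM2 (0.035 without ZNF683 3, 0.065 without Mock 2). Dox+ over Dox- turned 20 times, of which 13 came from median-of-ratios scaling or leaving out AL135790.1. Both settings rescale whole libraries and so shift the changes of all genes nearly alike, and those turns are of changes smaller than the shift. With median-of-ratios scaling these were MCM10 -0.24, RRM2 -0.063, CDT1 -0.22, GMNN -0.095, POLA1 -0.13, CLSPN -0.20 and TIPIN -0.048. Without AL135790.1 they were MCM10 -0.18, RRM2 -0.00024, CDT1 -0.16, GMNN -0.033, POLA1 -0.076 and CLSPN -0.14. The others turned without Dox- 1, with ranges over libraries left out of -0.31 to 0.45 for MCM10, -0.24 to 0.53 for CDT1, -0.067 to 0.46 for GMNN, -0.089 to 0.45 for POLA1 and -0.25 to 0.45 for CLSPN, or without Dox- 2, with ranges of -0.71 to 0.22 for POLE and -0.80 to 0.39 for HELLS. Without Dox- 3, 12 of the 29 passed the adjusted threshold.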

Other observations

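Mitosis genes, which act after S phase, were measured beside the replication genes. Of 30 such genes 17 had a positive change in ZNF683 over Mock, against 54.9% of all genes, with a median of 0.02, and limma called 0, with 0 at an unadjusted p under 0.05, against 13% of all genes. CENPA, the centromeric histone variant, had 15.4, 43.6 and 39.6 TPM in ZNF683 libraries, against 17.9, 18.0 and 19.8 TPM in Mock libraries, so ZNF683 library 1 lay below Mock and the other two above it. In Dox+ over Dox- 28 of 30 were positive as deposited (79.1% of all genes), with a median of 0.45, and 21 of 30 after median-of-ratios scaling (50.3% of all genes), with a median of 0.08. AURKA, the spindle kinase Aurora A, had 126, 127 and 138 TPM in Dox+ libraries, against 62.0, 44.5 and 133 TPM in Dox- libraries, with its lowest value in Dox- library 2 (limma adjusted p = 0.737).

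Over the 53 genes, the log2 ratio of the Dox+ mean to Dox- library 2 after scaling had a Spearman rho of -0.27 with the length of the longest coding transcript in GENCODE v29, beside -0.26 for Dox- library 3 and 0.06 for Dox- library 1. These are correlations across genes of single libraries, and genes are not independent replicates.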
